A study of Homo sapiens with 4 samples.

Results

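Cohesin and condensin are protein rings that hold and fold chromosomes, and the genes of their subunits were read in A2780/SRSF3si2 cells with and without doxycycline (Doxy). The members were chosen by symbol: SMC1A, SMC3, RAD21, STAG1 and STAG2 for cohesin, and SMC2, SMC4, NCAPD2, NCAPG and NCAPH for condensin. All 10 were measured, among 16634 genes, by 321 of the 261273 probe sets that are paired with a single gene symbol. Cohesin took 156 of these probe sets and condensin 165.

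A2780 is an ovarian cancer cell line. The A2780/SRSF3si2 subline carries a lentiviral cassette that makes an siRNA against SRSF3, a splicing factor of the SR family, when Doxy relieves a tetracycline repressor fused to a KRAB domain. Both groups carry the cassette. The Doxy group had received 0.1 μg/ml of Doxy over 3 days and the No Doxy group none, and each group was read on 2 Affymetrix human exon arrays. The sources used here do not say whether the subline is a clone or whether the replicates were cultured separately. The p-values therefore rest on the spread among these arrays alone, and that spread may be technical. Arrays of cells with a control siRNA were not analysed here, so effects of Doxy and of SRSF3 knockdown cannot be told apart.

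Cohesin encircles DNA with SMC1A and SMC3, long coiled-coil ATPases whose heads are bridged by the kleisin RAD21, and STAG1 or STAG2 binds RAD21 as alternative partners. It holds sister chromatids together from S phase to anaphase and extrudes chromatin loops in interphase. Condensin is built on SMC2 and SMC4, closed by the kleisin NCAPH, with NCAPD2 and NCAPG as HEAT-repeat subunits of condensin I, and it compacts chromosomes in mitosis. In cycling cells many condensin genes belong to the set of genes transcribed most strongly around G2 and mitosis.

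Each value is a log2 signal made by the RMA method. A gene value is the mean over the probe sets of the gene, and a difference is Doxy minus No Doxy. Signals of different genes come from different probes, so levels were compared only within a gene. SRSF3 itself had gene values of 7.84 and 7.97 in the Doxy arrays, against 8.50 and 8.33 in the No Doxy arrays. The Doxy values were under both No Doxy values, and the difference of -0.51 (standard error, SE, 0.18) had a limma adjusted p of 0.129, short of the threshold of 0.05. It passed with each array centred on its median (-0.67, adjusted p = 0.0376) and with quantile normalization (-0.64, adjusted p = 0.0462). In the other 11 of 13 alternatives it did not pass, and with the median of its probe sets the difference was -0.21 (limma adjusted p = 0.71). The paper reported strong suppression of SRSF3 in Doxy-treated cells of this subline by RT-PCR, qPCR and western blotting. Those measures are unlike an array mean over 8 probe sets. The array medians were 5.18 and 5.38 with Doxy and 5.20 and 5.04 without. The 7 measured epithelial ovarian markers averaged 5.27 and 5.14 with Doxy and 4.87 and 4.78 without, and EPCAM and CDH1 were called higher, while KRT19 and KRT8 had both Doxy values under both No Doxy values. Their part in the results on cohesin and condensin was not tested. The mean over leukocyte markers was 3.44 and 3.31 with Doxy and 3.47 and 3.27 without, and over endothelial markers 3.42 and 3.35 with Doxy and 3.40 and 3.48 without. The 7 fibroblast markers averaged 6.21 and 6.17 with Doxy and 6.23 and 6.16 without, though LUM was called higher (difference 0.79, limma adjusted p = 0.039) and COL3A1 had a difference of -0.65 (limma adjusted p = 0.0593).

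STAG2 rose with Doxy, by 1.97-fold, and was the only member to pass the test. The other cohesin genes had higher means with Doxy too, by less. Of these, SMC1A (0.04) and RAD21 (0.18) overlapped between the groups. With each array centred on its median their differences were -0.13 and 0.02. Within condensin the subunits went apart: NCAPD2 had a higher value in both Doxy arrays, SMC2 and SMC4 a lower value in both, and NCAPG and NCAPH differed mainly between the Doxy arrays. At an adjusted p under 0.05 from limma over all genes, 1 of 5 cohesin genes was higher and 0 lower, and 0 of 5 condensin genes passed in either direction, where 2 had an unadjusted p under 0.05, as 23.1% of all genes did. Over all genes tested, 5.67% were called higher and 1.7% lower (943 and 282 genes, 7.36% in all). In 4 members both Doxy values lay above the No Doxy values and in 2 below, where 30.5% and 21.8% of all genes did so. The study's thresholds were an unadjusted p under 0.05 and a fold change over 2, applied in Partek. Applied here to limma's p and the gene values, they called 0 of the 10. Over all genes they called 3.02% higher and 1.06% lower. At an adjusted p under 0.05 the split of higher and lower calls was 917 and 956 with each array centred on its median. With quantile normalization it was 892 and 609. The median difference was 0.44 for cohesin and -0.49 for condensin, beside 0.03 for all genes. Without Doxy replicate 1 the condensin median was 0.24 and the cohesin median 0.69.

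**Figure D1:**
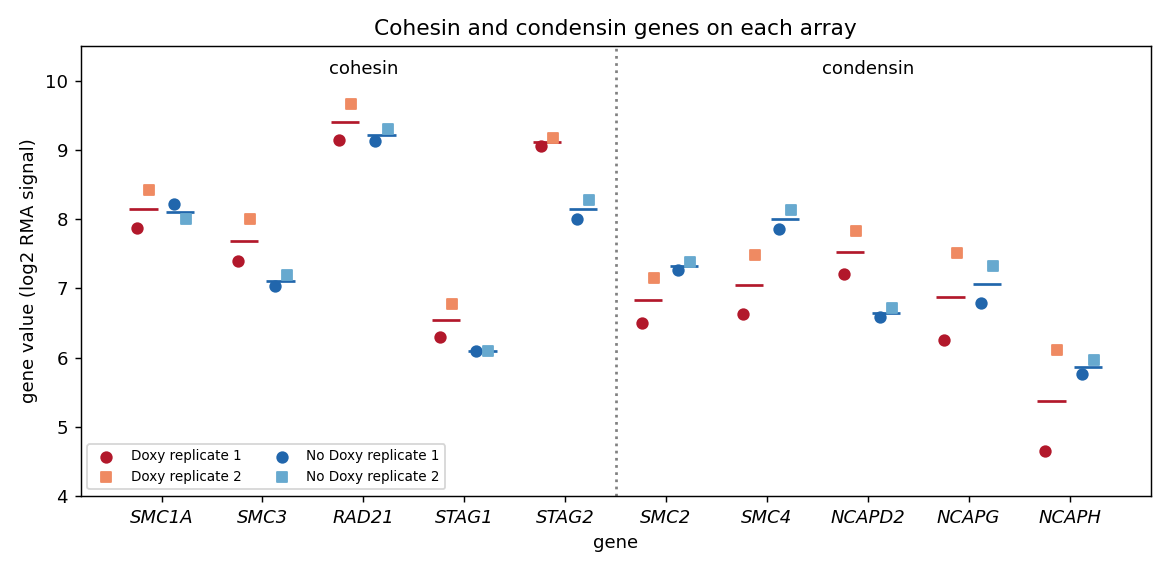
Gene values (log2 RMA signal, mean over probe sets) of the 5 cohesin and 5 condensin genes, with a point for each array, Doxy left of No Doxy, and a line at each group mean. The STAG2 points of the Doxy arrays, 9.06 and 9.17, lie above the No Doxy points, 8.0 and 8.28, and those of SMC4, 6.63 and 7.48, lie below the No Doxy points, 7.86 and 8.13.

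STAG2, the more abundant partner of RAD21 in most somatic cells, had gene values of 9.06 and 9.17 in the Doxy arrays and 8.0 and 8.28 in the No Doxy arrays. The groups did not overlap, and the Doxy arrays differed from each other by only 0.11. The difference was 0.98 (SE 0.19, limma adjusted p = 0.0241), with means of 9.12 ± 0.07 with Doxy and 8.14 ± 0.20 without (SD, n = 2 arrays each). All 39 of its probe sets had a difference above 0, from 0.05 to 1.60. In 37 of them, or 94.9%, both Doxy arrays lay above both No Doxy arrays, where 26.4% of all probe sets did so. The gene value averages these same probe sets, so this count, like those of other genes below, is no separate evidence. As an example, probe set 3989769 had 9.17 and 9.29 with Doxy and 7.77 and 7.99 without. Probe set 3989751, with the largest difference (1.60), had 8.71 and 9.01 with Doxy and 7.56 and 6.96 without. With each array centred on its median the difference was 0.82 (adjusted p = 0.0144). The call ended with the median of the probe sets (1.01, adjusted p = 0.0845). It ended too with the methods' t-test, which called 0 of all genes in either direction. With any array left out it was also lost, with differences from 0.84 to 1.12. Those fits leave 1 array in a group and cannot decide whether the call holds. Over the alternatives tried the adjusted p of STAG2 ran between 0.00124 and 0.321.

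The window around the STAG2 start is shown because STAG2 was the member that passed. It is the first of 3 windows that RefSeq gives for the gene, from 250 bases before to 50 after a start, at chrX:123960310-123960609 (GRCh38.p14, plus strand). Capitals mark the letters searched for.
STAG2: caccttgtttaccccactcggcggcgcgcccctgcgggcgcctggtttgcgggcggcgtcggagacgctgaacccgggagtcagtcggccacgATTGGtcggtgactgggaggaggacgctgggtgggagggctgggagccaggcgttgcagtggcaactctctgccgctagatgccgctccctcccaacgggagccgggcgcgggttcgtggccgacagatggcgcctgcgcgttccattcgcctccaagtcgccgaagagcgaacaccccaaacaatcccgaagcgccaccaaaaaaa
The letters searched on either strand were TTTGAA or TTCGAA for the cell cycle element CHR, CCAAT for the CCAAT box, and TTCGCGC or TTGGCGC for E2F. The last of these can overlap an inverted CCAAT. This window holds an inverted CCAAT that begins at position -157 from the start, no CHR letters and no E2F letters. Of the other STAG2 windows, the last holds 2 inverted CCAAT and E2F letters, and the middle window none of the letters searched. Of 35116 windows of 300 bases, 34.6% hold CCAAT, 16.4% the CHR letters and 5.1% the E2F letters. A match in letters is no evidence of a bound site.

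STAG1, the alternative partner of RAD21, had gene values of 6.30 and 6.78 with Doxy and 6.10 and 6.09 without. The groups did not overlap, but the difference of 0.44 (SE 0.21, limma adjusted p = 0.255) did not pass. A single probe set of STAG1 stood out from the rest of the gene. Probe set 2696896 had signals of 7.42 and 7.14 in the Doxy arrays, against 3.02 and 4.03 in the No Doxy arrays. The other 36 probe sets averaged 6.27 and 6.77 on the Doxy arrays and 6.18 and 6.15 on the No Doxy arrays. Its difference was 3.76, while those of the others ran from -0.40 to 1.62.

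Relative to the other STAG1 probe sets it rose by 3.41, and its adjusted p was 3.01e-06 from limma's diffSplice, in which each probe set is set against the rest of its gene and p-values are adjusted over all probe sets. The test pools the spread over the probe sets of a gene as if these were independent, though they share the same arrays. In that test 0.343% of 260974 probe sets were called higher and 0.185% lower. The excess was 3.41 with centred arrays and 3.40 with quantile normalization. It was between 2.88 and 3.93 with each array left out, but those fits leave 1 array in a group and cannot decide whether the call holds. Compared between the groups by itself, as 1 of 261273 probe sets, it had a limma adjusted p of 0.241. Without this probe set the STAG1 gene difference was 0.35, an alternative chosen after its values were seen. Probe set 2696860, the next in size, had 5.25 and 5.35 with Doxy and 3.95 and 3.42 without, and its excess of 1.21 did not pass (adjusted p = 0.428). Which exons of STAG1 these probe sets read is not known here.

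**Figure D2:**
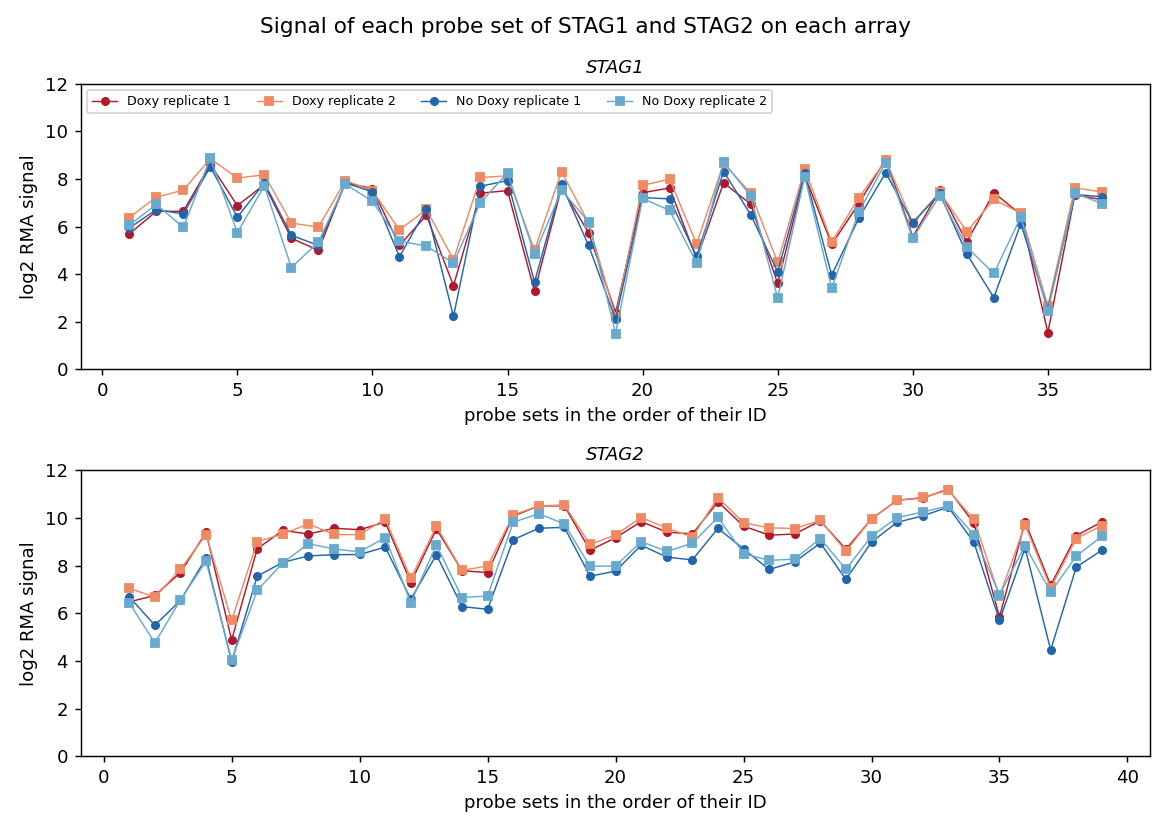
Signal (log2 RMA) of each of the 37 STAG1 and 39 STAG2 probe sets on each array, in the order of their ID, which is not a scale of distance. In STAG1 the widest gap between the groups is at probe set 33, where the Doxy arrays stand at 7.42 and 7.14 and the No Doxy arrays at 3.02 and 4.03, whereas in STAG2 the Doxy lines lie above the No Doxy lines along nearly the whole gene.

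Of the ring subunits, SMC3, whose acetylation by ESCO1 and ESCO2 locks the ring, had gene values of 7.39 and 8.0 with Doxy and 7.03 and 7.20 without. The groups did not overlap, and the difference of 0.58 (SE 0.23) had an adjusted p of 0.182 from limma. In 21 of 32 SMC3 probe sets, or 65.6%, both Doxy arrays lay above both No Doxy arrays, where 26.4% of all probe sets did so. SMC1A, the other ATPase of the ring, had 7.87 and 8.42 with Doxy and 8.22 and 8.0 without. The No Doxy values lay between the Doxy values, with a difference of 0.04 (SE 0.23, limma adjusted p = 0.952) that turned to -0.13 with centred arrays and to -0.09 with quantile normalization. RAD21, the kleisin that separase cuts at anaphase, had 9.14 and 9.66 with Doxy and 9.13 and 9.30 without, an overlap of the groups with a difference of 0.18 (SE 0.22, limma adjusted p = 0.696). Without Doxy replicate 2 the differences were -0.24 for SMC1A and -0.07 for RAD21.

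The gap between a pair of genes on the same array does not move with a shift of the whole array. The gap of STAG2 over RAD21 was -0.08 and -0.49 with Doxy and -1.13 and -1.03 without, and that of STAG2 over STAG1 was 2.77 and 2.39 with Doxy and 1.90 and 2.18 without. Both gaps were higher in both Doxy arrays, by 0.80 and 0.54. The gap of SMC3 over SMC1A, which meet in the same ring, was -0.48 and -0.43 with Doxy and -1.19 and -0.80 without, a difference of 0.54. With 2 arrays against 2 the smallest two-sided exact permutation p is 0.333, so that test could not pass. The gaps are made from the gene values given above and are no separate evidence. No other test was run on them.

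SMC4, an ATPase of condensin, had gene values of 6.63 and 7.48 in the Doxy arrays, against 7.86 and 8.13 in the No Doxy arrays. The Doxy values were under both No Doxy values, with a difference of -0.94 (SE 0.28, limma adjusted p = 0.086) that did not pass. It passed with centred arrays (-1.11, adjusted p = 0.00212) and with quantile normalization (-1.07, adjusted p = 0.0295), and its adjusted p ran between 0.00212 and 0.494 over the alternatives. In 28 of 36 SMC4 probe sets, or 77.8%, the Doxy signals were under both No Doxy signals, where 19% of all probe sets did so. Probe set 2650263 had 6.27 and 6.49 with Doxy and 8.09 and 8.71 without, and the largest difference, -2.57, was that of probe set 2650261, with 2.68 and 4.93 with Doxy and 6.50 and 6.23 without. SMC2, its ATPase partner, had 6.50 and 7.15 with Doxy and 7.26 and 7.38 without. The SMC2 groups did not overlap either, though Doxy replicate 2 lay only just below, and the difference of -0.49 (SE 0.24) had an adjusted p of 0.263. In 16 of 32 SMC2 probe sets both Doxy arrays were lower than both No Doxy arrays, and in 0 of 32 both were higher. Among all probe sets these shares were 19% and 26.4%.

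NCAPD2, a HEAT-repeat subunit of condensin I, ran the other way, with gene values of 7.21 and 7.83 in the Doxy arrays and 6.59 and 6.72 in the No Doxy arrays. The Doxy values were over both No Doxy values. The difference was 0.86 (SE 0.23, limma adjusted p = 0.0643). It passed with centred arrays (0.70, adjusted p = 0.0392), and its adjusted p ran between 0.00492 and 0.434 over the alternatives. With an array left out the difference was between 0.55 (without Doxy replicate 2) and 1.18 (without Doxy replicate 1). Those fits leave 1 array in a group and cannot decide whether it passes. In 38 of its 44 probe sets, or 86.4%, both Doxy arrays were above both No Doxy arrays, where 26.4% of all probe sets did so. The gap of NCAPD2 over SMC4 on the same array was 0.58 and 0.35 with Doxy and -1.27 and -1.42 without, a difference of 1.81, the largest among the 8 pairs computed. That gap was higher in both Doxy arrays, which follows from the higher NCAPD2 and lower SMC4 values given above, and it was not tested.

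NCAPG and NCAPH, the second HEAT-repeat subunit and the kleisin of condensin I, had no common direction in the Doxy arrays. NCAPG had 6.25 and 7.51 with Doxy and 6.79 and 7.33 without, and NCAPH had 4.66 and 6.11 with Doxy and 5.77 and 5.97 without. In both genes Doxy replicate 1 was the lowest of the 4 arrays and Doxy replicate 2 the highest. The differences were -0.18 (SE 0.38, limma adjusted p = 0.843) for NCAPG and -0.49 (SE 0.40, limma adjusted p = 0.552) for NCAPH, and without Doxy replicate 1 they were 0.45 and 0.24. The NCAPG difference was 0.02 with the median of its probe sets.

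**Figure D3:**
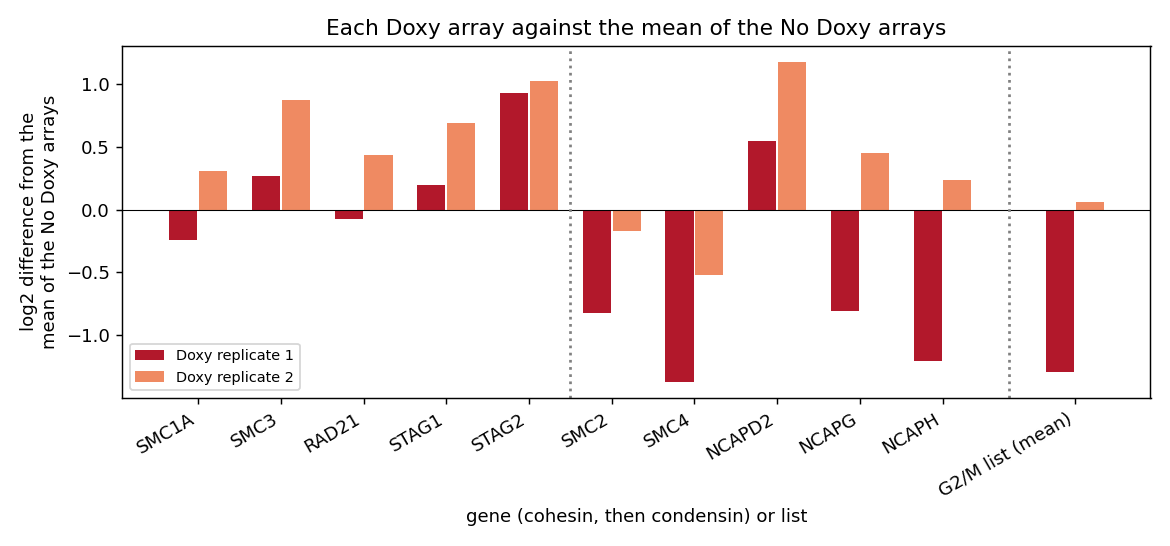
Log2 difference of each Doxy array from the mean of the No Doxy arrays for the 10 genes, and at the right for the mean of 24 measured G2/M genes. In the deposited values Doxy replicate 1 lies below Doxy replicate 2 in every gene. The values run from 0.93 against 1.03 in STAG2 to -1.21 against 0.24 in NCAPH, and the G2/M mean shows the same order.

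In the deposited values Doxy replicate 1 was lower than Doxy replicate 2 in all 10 genes. It was lower by 0.11 in STAG2, by 0.49 to 0.61 in the other cohesin genes and by 0.62 to 0.85 in NCAPD2, SMC2 and SMC4. In NCAPG it was lower by 1.27 and in NCAPH by 1.45. Its array median was lower as well, 5.18 against 5.38. With each array centred on its median STAG2 turned (9.09 against 8.99), and the other members kept the order. The share of all genes with this order was not computed. The mean of the 24 measured genes of a G2/M list, which holds none of the members, was 5.76 in Doxy replicate 1 and 7.11 in Doxy replicate 2, against 6.87 and 7.23 in the No Doxy arrays. The median difference of that list was -0.73, and 0.02 without Doxy replicate 1. In limma 0 of the 24 passed in either direction, and 8 had an unadjusted p under 0.05 (23.1% of all genes did). In 9 the Doxy values were under both No Doxy values, as in 21.8% of all genes. The part of these genes, and of Doxy replicate 1, in the condensin values was not tested. In RNA from whole cultures fewer cells that express a gene and less of its RNA per cell cannot be told apart.

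Of 156 cohesin probe sets, 75 (48.1%) had both Doxy arrays above both No Doxy arrays and 2 (1.28%) below, and 79 overlapped. Of the 75, 37 were of STAG2, 21 of SMC3 and 14 of STAG1, against 1 of SMC1A and 2 of RAD21. Of 165 condensin probe sets, 42 (25.5%) were above and 50 (30.3%) below. Among all probe sets these shares were 26.4% above and 19% below. The condensin probe sets above were mostly those of NCAPD2, with 38 of the 42, and those below were mostly those of SMC4 and SMC2, with 28 and 16 of the 50. Probe sets of a gene share its RNA and the arrays, so they are not independent, and these counts carry no test.

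**Figure D4:**
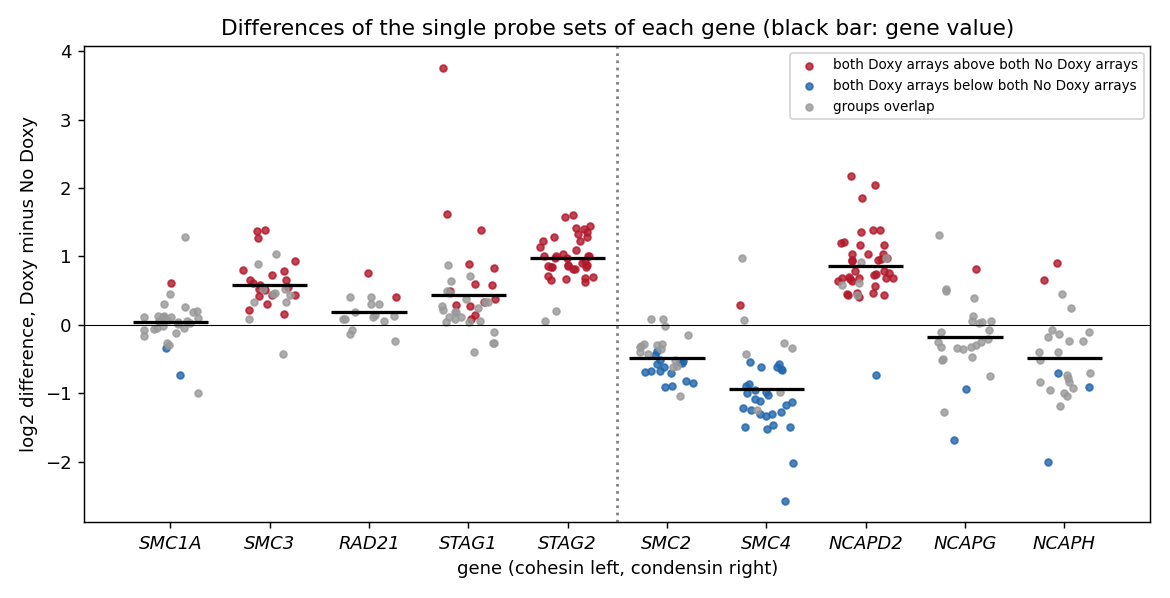
Log2 difference (Doxy minus No Doxy) of each of the 321 probe sets by gene, coloured by whether the arrays of the groups overlap, with a black bar at the difference of the gene value. All STAG2 points lie above 0, all but 3 SMC4 points lie below it, and the STAG1 point at 3.76 is probe set 2696896.

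No single probe set of the 321 passed limma at an adjusted p under 0.05 when compared between the groups by itself, and the share called was 0% of all 261273 probe sets in either direction. At an unadjusted p under 0.05 there were 68 of the 321, beside 12.7% of all probe sets. The 68 held 28 STAG2 probe sets, all higher, 14 SMC4 probe sets, all lower, and 11 NCAPD2 probe sets, all higher. With a trended and robust prior 8 passed, beside 0.845% of all probe sets: 5 of STAG2, 2 of SMC4 and 2696896 of STAG1. At an unadjusted p under 0.05 and a fold change over 2 there were 45, beside 9.74% of all probe sets.

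Unequal change of the probe sets within a gene, which is read as altered splicing in such array studies, was not called in any member by the F test of diffSplice, where 2.46% of all genes were called. STAG1 had an adjusted p of 0.0797 (unadjusted p = 0.00259), the lowest of the 10, and it was the only member with an unadjusted p under 0.05, as 13.4% of all genes had. It passed with centred arrays (adjusted p = 0.0262), with quantile normalization (0.0299), with the Simes test (8.22e-06) and with an analysis of variance that has a term for the array (0.00554). Without probe set 2696896 its adjusted p was 1.00. The analysis of variance called 6.01% of all genes, with NCAPG (adjusted p = 0.0276) as the other member. All of these tests pool the spread over the probe sets of a gene as if these were independent, though they share the same arrays. In the remaining 9 members the most deviating probe set differed from the rest of its gene by -1.63 in NCAPD2 to 1.98 in SMC4, with adjusted p from 0.186 to 0.976, so that none passed.

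For condensin, the windows around the starts of SMC4 and NCAPD2 are shown because these subunits ran in opposite directions. They lie at chr3:160399400-160399699 and chr12:6493852-6494151 (RefSeq, GRCh38.p14, both on the plus strand), the first of 2 windows for SMC4 and the only window for NCAPD2. Capitals mark the same letters as before.
SMC4: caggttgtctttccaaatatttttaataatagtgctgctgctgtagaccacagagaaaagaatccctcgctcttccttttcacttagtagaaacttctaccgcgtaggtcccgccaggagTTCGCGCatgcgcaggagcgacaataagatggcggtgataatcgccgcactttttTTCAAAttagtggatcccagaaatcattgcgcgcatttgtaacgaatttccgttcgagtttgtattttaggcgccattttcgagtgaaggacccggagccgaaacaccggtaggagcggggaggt
NCAPD2: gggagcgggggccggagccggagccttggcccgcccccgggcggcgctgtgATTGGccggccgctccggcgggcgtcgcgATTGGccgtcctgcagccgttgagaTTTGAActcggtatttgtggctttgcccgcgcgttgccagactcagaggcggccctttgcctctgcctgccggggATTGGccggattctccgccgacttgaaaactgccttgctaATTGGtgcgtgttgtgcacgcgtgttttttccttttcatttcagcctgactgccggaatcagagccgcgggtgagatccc
Both windows hold the CHR letters, inverted at position -75 in SMC4 and forward at -145 in NCAPD2. The SMC4 window also holds E2F letters at -130, and the NCAPD2 window holds 4 inverted CCAAT at -199, -170, -70 and -30. Promoter windows were found for 9 of the 10 members, all but RAD21. The CHR letters were present for 4 of 5 condensin genes (SMC2, SMC4, NCAPD2 and NCAPG) and for 1 of 4 cohesin genes (SMC3). Some of these genes have several windows. By window, 4 of 7 condensin windows and 1 of 7 cohesin windows held the CHR letters, beside 16.4% of all windows searched. The condensin genes with CHR letters included ones with lower and with higher values in the Doxy arrays, and the part of the letters in these values was not tested.

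Genes that load, lock and open the rings were read from lists. Over all genes, 5.67% were called higher and 1.7% lower by limma. Among 7 genes of cohesin loading and release, NIPBL, which loads cohesin onto chromatin, rose, with 7.40 and 7.77 in the Doxy arrays and 6.59 and 6.83 in the No Doxy arrays (difference 0.87, SE 0.20, limma adjusted p = 0.042), and 0 fell. The lowest of that list was CDCA5 (sororin, which holds cohesion in G2), with 3.49 and 4.43 with Doxy and 4.88 and 4.90 without (adjusted p = 0.101). Among 6 measured genes of acetylation, cleavage and protection, ESCO1, which acetylates SMC3, rose, with 7.45 and 7.53 with Doxy and 6.53 and 6.56 without (difference 0.95, adjusted p = 0.0208), and 0 fell. ESCO1 was also called for unequal probe set change (adjusted p = 0.0458 from diffSplice), a call lost in 6 of 10 alternatives, namely centred arrays (0.0795), quantile normalization (0.0573), the replicate block (0.226) and leaving out either Doxy array (1.00 in both cases) or No Doxy replicate 2 (0.0794). The list medians were 0.08 and -0.42.

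The SMC5/6 complex is another SMC ring, which acts in recombination repair. Among 9 of its genes, NSMCE1 and NSMCE2 rose and 0 fell, beside 5.67% and 1.7% of all genes. The list median was 0.29. NSMCE1 had 7.44 and 7.59 with Doxy and 6.68 and 6.30 without (difference 1.03, adjusted p = 0.0257 from limma). NSMCE2, the SUMO ligase of the complex, had 7.28 and 7.58 with Doxy and 6.46 and 6.6 without (difference 0.91, adjusted p = 0.0313). None of the 3 condensin II genes passed (0 at an unadjusted p under 0.05), with a median of 0.12, and NCAPG2 had the same array order as NCAPG and NCAPH, with 4.55 and 5.92 with Doxy and 5.53 and 5.78 without. Of the meiotic cohesin genes, 3 were measured and 0 passed, also at an unadjusted p under 0.05, and their gene values lay between 2.02 and 4.35. Of 5 genes of the chromosome scaffold and condensin partners, 0 passed, with a median of -0.54. At an unadjusted p under 0.05 there was 1, beside 23.1% of all genes. That 1 was KIF4A, a motor that binds condensin, with 6.17 and 7.49 with Doxy and 7.86 and 8.33 without (adjusted p = 0.0954). NIPBL, ESCO1, NSMCE1 and NSMCE2 each lost the call with the median of probe sets. Each lost it too with the methods' t-test, which called 0 of all genes in either direction. NIPBL and NSMCE2 lost it also with Tukey's median polish and without the dimmest probe sets. With any array left out each of these genes lost the call, but fits with 1 array left in a group cannot decide whether it holds. KIF4A and CDCA5 passed with centred arrays (-1.43, adjusted p = 0.000718, and -1.09, adjusted p = 0.00242). They passed too with quantile normalization and with a replicate block (adjusted p = 0.000109 and 0.00393). In 9 of 13 alternatives each did not pass, and their adjusted p reached 0.536 and 0.513. Without Doxy replicate 1 the differences were -0.61 and -0.45, and without Doxy replicate 2 they were -1.93 and -1.39.

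**Figure D5:**
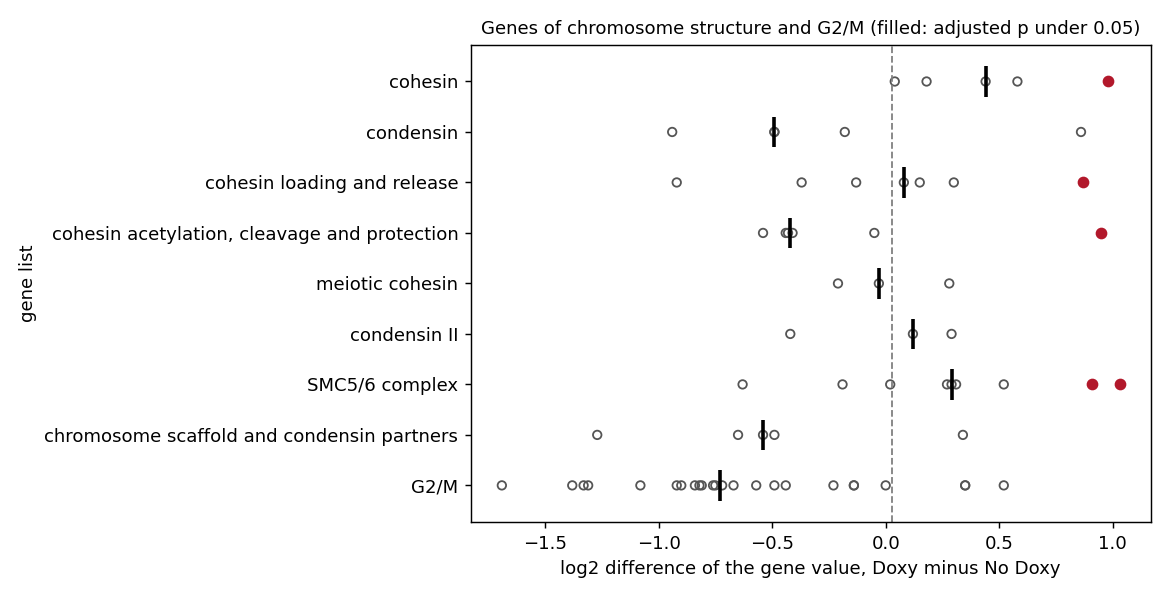
Log2 difference of the gene value (Doxy minus No Doxy) of each measured gene by list, marker lists left out, with filled points for genes at an adjusted p under 0.05, a black bar at the list median and a dashed line at 0.03, the median of all genes. Filled points are STAG2, NIPBL, ESCO1, NSMCE1 and NSMCE2, all to the right of 0.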

How the data were processed

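RNA of A2780/SRSF3si2 cells was hybridized to Affymetrix Human Exon 1.0 ST arrays, and the deposited log2 values were made by the authors with the RMA method of Expression Console on core exon probe sets. The submitters' processing notes name Partek 6.6. Neither the version of Expression Console nor a genome build was found in the sources used here. Array medians still differed, so how the arrays were scaled is unknown.

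Probe sets with exactly 1 symbol were kept (9155 with several and 16901 with none were left out), symbols were updated through RefSeq, and a gene needed 2 or more probe sets. Tests of expression used limma 3.58.1 (R 4.3.3) with Benjamini-Hochberg adjustment over all genes, unequal probe set change by limma's diffSplice, and single probe sets by limma. Scripts were tested on simulated data. Named genes were the members, SRSF3, list genes called by limma (at most 4 a list), and the most deviating probe set of each member. Others named for their values were chosen after seeing them: CDCA5, KIF4A, NCAPG2, the uncalled markers and further probe sets. The members and lists were chosen with earlier results of these data known. Alternatives were other gene values, scalings, filters, priors and thresholds, a replicate block, the methods' t-test and each array left out. Added after seeing the data were leaving out a STAG1 probe set and the alternatives of the list medians and of that probe set. With 1 array left in a group, it is assumed to vary like the others. Equally numbered arrays deviated together across genes with r = 0.127, and pairing is not established. The number of arrays limits the precision.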

Additional observations from a re-analysis of the deposited data

How the results depend on the processing

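The cohesin call (STAG2) was kept with Tukey's median polish, without the dimmest 25% of probe sets, with centring, quantile normalization, a replicate block, a trended and robust prior and at least 5 probe sets per gene. The count of higher cohesin genes was 0 with the median of probe sets and with an unadjusted p under 0.05 and a fold change over 2. It was also 0 with the methods' t-test, which called 0 of all genes in either direction. The STAG2 call was lost with any array left out, where 1 array left in a group cannot decide whether it holds. Higher condensin genes numbered 1 (NCAPD2) with centring, with the replicate block and with at least 5 probe sets per gene. Fits with an array left out leave 1 array in a group and cannot decide whether NCAPD2 passes. Lower condensin genes numbered 1 (SMC4) with centring, quantile normalization and the replicate block. Under the block the adjusted p was 0.00492 for NCAPD2 and 0.00228 for SMC4, and the replicates share only a number. It called 1763 genes higher and 658 lower.

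Splicing calls of cohesin genes numbered 1 with centring, quantile normalization, the Simes test and the analysis of variance (STAG1 in each) and 0 to 1 with an array left out (STAG2 without No Doxy replicate 1, where 4013 genes were called), and those of condensin genes 1 with the analysis of variance. Single probe set calls numbered 8 with the trended and robust prior (0.845% of all probe sets) and 45 with an unadjusted p under 0.05 and a fold change over 2 (9.74%).

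Directions turned for SMC1A (-0.13 centred, -0.09 quantile normalized, -0.24 to 0.31 with an array left out), NCAPG (0.02 with the median of probe sets, -0.81 to 0.45), NCAPH (-1.21 to 0.24), RAD21 (-0.07 to 0.44) and NCAPG2 (-1.10 to 0.27). The condensin median ran from -0.82 to 0.24 and the G2/M median from -1.37 to 0.02 with an array left out. The median of all genes was 0.03 as deposited and -0.13 centred. The cause of these changes was not tested.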

Other observations

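Some member probe sets differed within a group by more than between the groups. These were picked after their values were seen. SMC4 probe set 2650213, the largest exception to the lower SMC4 signals, had 10.09 and 10.15 with Doxy and 10.24 and 8.05 without, a difference of 0.98 in which No Doxy replicate 2 was the low array. NCAPD2 probe set 3402618, with the largest difference of that gene (2.18), had 6.21 and 7.64 with Doxy and 6.18 and 3.30 without, and here too No Doxy replicate 2 was the low array. NCAPH probe set 2494518 had 1.75 and 4.19 with Doxy and 4.94 and 5.02 without, where Doxy replicate 1 was the low array.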
